A study of Homo sapiens with 15 samples.

Results

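Vehicle-treated cells harvested at 48 h were compared with vehicle-treated cells harvested at 24 h, to describe what changed with time in the dishes against which a drug effect is read. The comparison holds 6 of the 15 arrays of the series, 3 for each time, chosen by their labelled agent and time. All arrays measured total RNA of A549, an established line from a human lung carcinoma and the only line used, on Affymetrix HG-U133 Plus 2.0 arrays. Cells were kept in DMEM with fetal bovine serum, were given 24 h to attach after seeding, and then stayed in DMSO, the solvent that all vehicle dishes received at 0.4%, until they were trypsinized as confluent cells and frozen. The other 9 arrays, also 3 a group, held cells given geldanamycin, an inhibitor of the chaperone HSP90: 40 nM (the dose labelled as IC50) for 24 h or for 48 h, and 10 nM (labelled as IC20) for 48 h. Each gene was read from its brightest probe set with a single gene symbol, which gave 19775 genes, as log2 levels after all 15 arrays had been brought to the same distribution by quantiles.

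Cells that stay longer in a dish become denser, take up nutrients from the medium and fill it with what they secrete. Adherent carcinoma cells are known to adjust junction and matrix genes, growth control and secreted signals under such conditions. Vehicle dishes of each time serve as the control for the drug at that time, so changes in them set the base from which drug effects are measured.

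Between 24 h and 48 h, 8451 of the 19775 genes passed limma's moderated test at an adjusted p below 0.05, which is 42.7% of those tested. Of these, 4065 were higher at 48 h (20.6%) and 4386 were lower (22.2%). At 2-fold or more, 329 genes were higher (1.66%) and 186 were lower (0.941%). The arrays of the 2 times did not overlap for 10252 genes (51.8%). The split into higher and lower genes depends on the scale: with the values as deposited, 13304 genes were higher and 664 lower, and with each array's median subtracted from them 2247 were higher and 6570 lower. The median difference of all genes was 0.35 on the deposited scale, -0.15 with array medians subtracted and -0.02 after quantile normalization. Small changes are therefore read here relative to all genes. In each of the gene lists described below, the values as deposited gave no fewer higher and no more lower members, and array medians subtracted no more higher and no fewer lower ones. Leaving the 10 nM arrays out of the normalization gave 8144 genes.

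Several technical measures moved with time as well. Poly-A control transcripts, bacterial RNAs added before labelling, were lower at 48 h for all 24 probe sets, with a median difference of -0.78, and the 18 hybridization control probe sets were lower by a median of -0.28. The difference between the 3' and the 5' probe set of GAPDH, which grows as cDNA falls short of the 5' end, was 0.14 ± 0.01 (SD, n = 3) at 24 h and 0.11 ± 0.02 at 48 h. On the 10 nM arrays the poly-A controls averaged 3.24, against 5.76 on the vehicle arrays of the same time. Their part in the changes of single genes was not tested. The labels give no batch, passage or thaw of the cells, so time and any other difference between the cultures of the 2 times cannot be told apart.

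The geldanamycin arrays show how far a vehicle change recurs in other dishes. The 40 nM arrays share no array with the vehicle comparison, and between 24 h and 48 h at 40 nM 9725 genes passed (49.2%), of which 4784 were higher at 48 h (24.2%) and 4941 lower (25%). The change with time differed between vehicle and 40 nM for 4377 genes (22.1%), and was higher in vehicle for 2185 (11%) and lower for 2192 (11.1%). Of the 329 genes that were at least 2-fold higher in vehicle, 313 (95.1%) were also called higher at 40 nM, and of the 186 that were at least 2-fold lower, 171 (91.9%) were also called lower. The 10 nM arrays, labelled 48 h, were not all on the side of the 48 h vehicle arrays. Their mean lay nearer to the 24 h vehicle mean for 174 of the 329 higher genes and for 113 of the 186 lower genes, and for 1503 of all 4065 genes called higher and 1547 of all 4386 called lower.

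Among the largest rises were FBN2, CDH6 and CYP1B1. FBN2, which encodes the microfibril protein fibrillin 2, had log2 levels of 4.98, 5.13 and 5.33 on the 3 vehicle arrays at 24 h and 9.77, 9.71 and 9.61 at 48 h. All 48 h arrays lay far above all 24 h arrays, and the rise was 4.55 ± 0.09 (SE of the fit) on the log2 scale, or 23.5-fold (adjusted p = 8.24e-13). CDH6, a cadherin of cell adhesion, went from 4.12, 4.11 and 4.17 to 8.55, 8.45 and 8.47, a 20.4-fold rise (adjusted p = 1.86e-12). CYP1B1, a cytochrome P450 that the aryl hydrocarbon receptor induces, went from 5.43, 5.49 and 5.32 to 9.51, 9.59 and 9.62, which was 17.8-fold (adjusted p = 8.9e-14).

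COL11A1, a chain of type XI collagen, rose from 6.73, 6.43 and 6.37 to 10.35, 10.30 and 10.31. GREM1, a secreted antagonist of bone morphogenetic proteins, rose from 2.90, 2.61 and 2.80 to 6.38, 6.59 and 6.15, so that a transcript among the dimmest 25% at 24 h reached a mean of 6.37 at 48 h. CNKSR2, a scaffold protein of Ras signalling, rose by 4.35 on the log2 scale. ST6GAL2, a sialyltransferase, rose by 3.96, and the membrane protein TSPAN7 by 3.71. RNF128, a ubiquitin ligase, rose by 3.53, and the microtubule-associated MAP7D2 by 3.45. LUM, the matrix proteoglycan lumican, rose by 3.51 on its brightest probe set, but without probe sets whose names end in _x_at or _s_at, which can bind related transcripts, its difference was -0.089 (adjusted p = 0.575). These 11 genes and 1 on chromosome Y that is not described make up the 12 largest rises.

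The largest falls were headed by FPR2, EDIL3 and SPARC, which were bright at 24 h. FPR2, a formyl peptide receptor, had levels of 9.60, 9.67 and 9.73 at 24 h and 4.54, 4.03 and 4.11 at 48 h. It was 43.4-fold lower at 48 h, a log2 difference of -5.44 ± 0.10 (adjusted p = 8.24e-13). EDIL3, an integrin-binding matrix protein, fell from 10.37, 10.38 and 10.34 to 5.79, 5.55 and 5.54, which was 26.6-fold. SPARC, a collagen-binding matrix protein, fell from 11.16, 11.12 and 11.09 to 6.69, 6.61 and 6.53, which was 22.8-fold (adjusted p = 8.51e-14). For each of these 3 genes every 48 h array lay far below every 24 h array.

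RGS4, a regulator of G protein signalling, fell by 4.25 on the log2 scale, with levels of 8.22, 8.29 and 8.13 at 24 h and 3.43, 4.42 and 4.03 at 48 h. SHROOM2, which shapes apical actin, fell by 3.87, and LIMA1, an actin-bundling LIM protein, was 9.38-fold lower. MCAM, an adhesion molecule, was 9.97-fold lower on its brightest probe set, while without probe sets ending in _x_at or _s_at the difference was -0.13 and did not pass. HBE1, the embryonic epsilon globin, was 8.59-fold lower, and SALL1, a zinc finger factor of organ development, fell by 2.87. FAM9B fell by 2.81, and WNT5A, a ligand of non-canonical Wnt signalling, was 6.75-fold lower. HLA-DPA1, also among the 12 largest falls, is described with its gene family.

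All 24 of these genes were called in the same direction between 24 h and 48 h at 40 nM, on other arrays. For 11 of them the size of the change differed between vehicle and 40 nM. GREM1 rose by 3.61 in vehicle and by 0.80 at 40 nM, and EDIL3 fell by 4.73 in vehicle and by 5.95 at 40 nM. The 10 nM arrays, although labelled 48 h, lay nearer to the 24 h vehicle arrays for all 24. CDH6 averaged 4.24 at 10 nM against 8.49 in vehicle at 48 h, and EDIL3 averaged 10.32 against 5.63. Of the 24 genes, 19 have more than 1 probe set, and none had a set called in the opposite direction. The sizes rest on the brightest set: the 2 other sets of FBN2, both dim, rose by 0.23 and 0.97, and those of EDIL3 fell by 0.72 and 0.59. On 1 side of the comparison 21 of the 24 had a mean level below 6, close to the median level of all genes. For 11 of the 23 described it was among the dimmest 25% of genes of that time (below 4.02 at 24 h or 3.98 at 48 h), and no fold is given for these, since how far such a level stands above background was not measured.

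**Figure D1:**
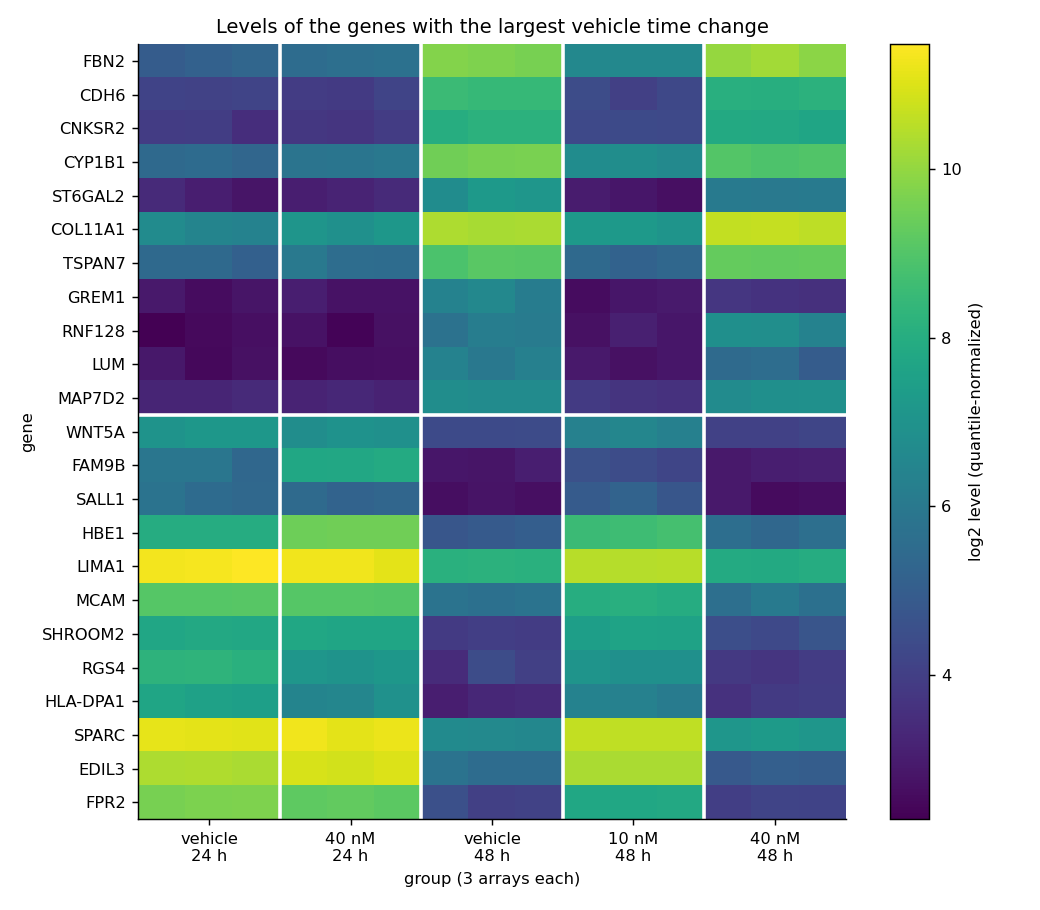
Log2 levels (colour) of the 11 largest rises described and the 12 largest falls in vehicle cells between 24 h and 48 h, on all 15 arrays in 5 groups of 3. The 40 nM means lie nearer to the vehicle mean of their own time for all 23 genes at 24 h and for 22 at 48 h, GREM1 being the exception, while the 3 arrays of 10 nM at 48 h lie nearer to the 24 h vehicle arrays for each gene.

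The rise was not spread evenly over the chromosomes. Among the 9925 genes with a mean level of at least 6, the 460 on chromosome 7 had a median log2 difference of 0.43, or 1.35-fold, and 90.2% of them were above 0. Of these 460 genes, 357 (77.6%) rose and 20 (4.35%) fell, against 28.5% and 26.0% of all 9925. Chromosome 7 holds 4.63% of these genes and 12.6% of those that rose. Chromosome 3 had a median of 0.15, and the medians of the other 21 nuclear chromosomes tested lay between -0.07 and 0.04.

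After each gene's mean over the 15 arrays was subtracted, the median of chromosome 7 was -0.17, -0.17 and -0.16 on the 3 vehicle arrays at 24 h and 0.27, 0.26 and 0.25 at 48 h. The SD over the arrays was 0.006 at 24 h and 0.009 at 48 h. The groups lay far apart for this spread. Chromosome 7 was singled out for its median, so no test is given. The 40 nM arrays gave a mean of -0.17 at 24 h and 0.26 at 48 h. The 10 nM arrays gave -0.15 ± 0.003 (SD, n = 3), on the side of the 24 h arrays.

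Along the genome in runs of about 40 neighbouring genes, 17 of 239 runs had a median of 0.3 or more. They were all 11 runs of chromosome 7, at 0.37 to 0.51, and 6 of the 13 runs of chromosome 3, at 0.33 to 0.43. Those of chromosome 3 formed 3 stretches, from TRNT1 to CLASP2, from CHMP2B to ZXDC and from DBR1 to ECT2, and the other 7 runs of that chromosome lay between -0.06 and 0.07. The other 222 runs of the genome lay between -0.24 and 0.15. In the 40 nM time change the same runs were at 0.34 to 0.55 on chromosome 7 and 0.28 to 0.55 on chromosome 3. For 10 nM at 48 h minus vehicle at 24 h they were at -0.08 to 0.15 and -0.05 to 0.20. DNA was not analysed here, and the source of the shift was not tested.

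**Figure D2:**
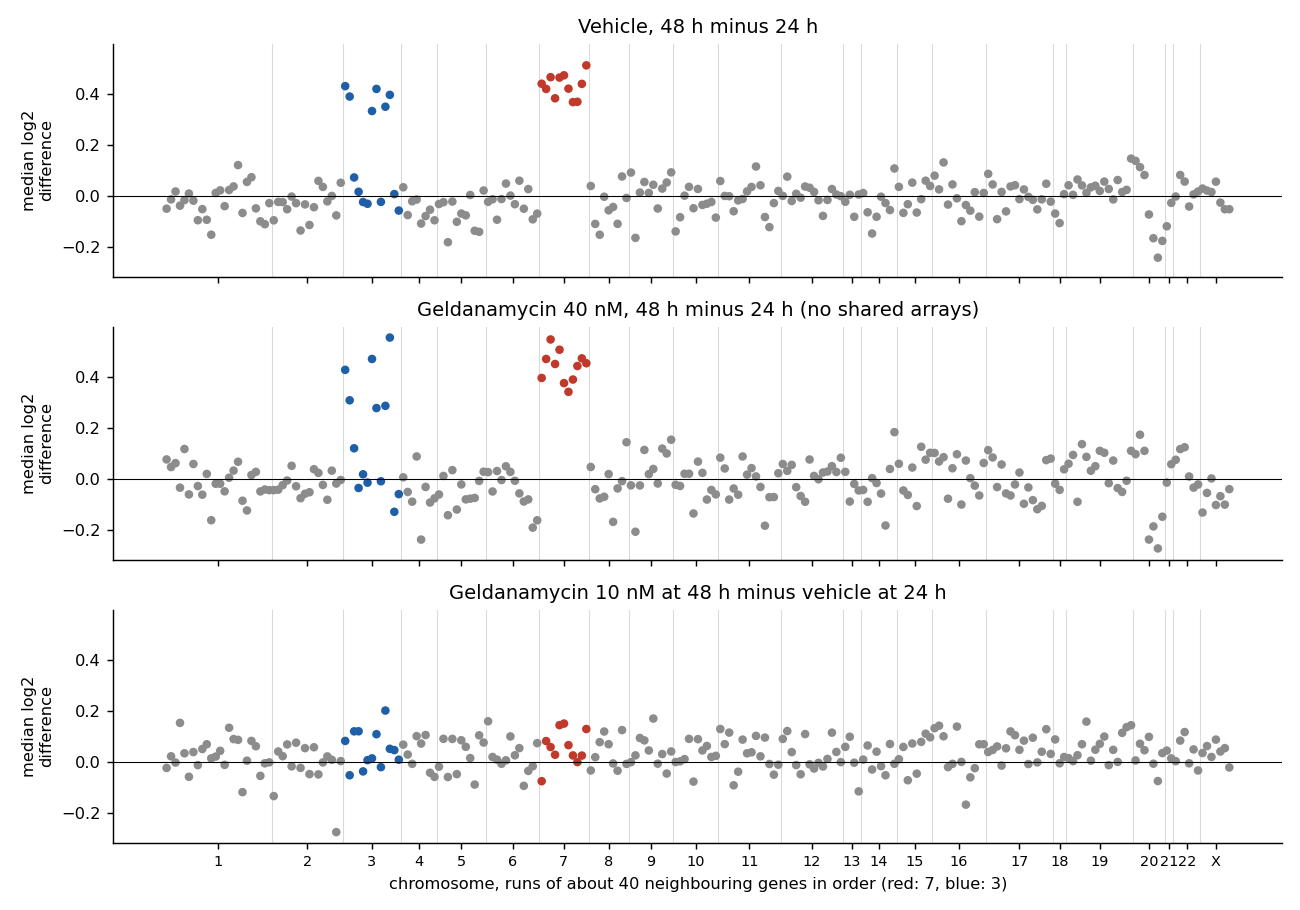
Median log2 difference of each run of about 40 neighbouring genes, in chromosome order, for the vehicle time change, the 40 nM time change and 10 nM at 48 h minus vehicle at 24 h. Chromosome 7 (red, 11 runs) and 6 of 13 runs of chromosome 3 (blue) stand at 0.33 to 0.51 in vehicle, and the runs of chromosome 7 reach at most 0.15 in the third panel.

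Single genes on chromosome 7 changed by more than the chromosome's median. The 2 largest rises there were PDE1C, a phosphodiesterase, from a mean of 4.18 to 7.49, and PEG10, an imprinted gene derived from a retrotransposon, from 7.02 to 10.18. AHR, the aryl hydrocarbon receptor, rose from 6.68 to 8.46, a log2 difference of 1.78 ± 0.13. AGR2, a disulfide isomerase of mucus-producing cells, rose by 1.91 in vehicle and changed by -0.18 with time at 40 nM. These genes were chosen after their values were seen, from the 10 largest rises of the chromosome.

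The 7 genes of the mitochondrial genome that were measured all rose, with a median of 0.52. ND2, a subunit of complex I, went from a mean of 12.56 ± 0.16 (SD, n = 3) to 13.57 ± 0.05, and COX2, a subunit of complex IV, from 13.97 ± 0.01 to 14.33 ± 0.01. Here the 10 nM arrays sided with the 48 h vehicle arrays: ND2 averaged 13.57 and ND4 13.89 at 10 nM, and the median over the 7 genes for 10 nM minus vehicle at 24 h was 0.52. Of 27 nuclear genes of oxidative phosphorylation, 3 rose and 9 fell, with a median of -0.04. The share called was 44.4%, close to the 42.7% of all genes. All 27 had a mean level of at least 6, and of genes at that level 28.5% were called higher and 26.0% lower. With the values as deposited 18 were higher and 0 lower, and with array medians subtracted 0 were higher and 17 lower. On both of these scales the median relative to all genes was -0.15.

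**Figure D3:**
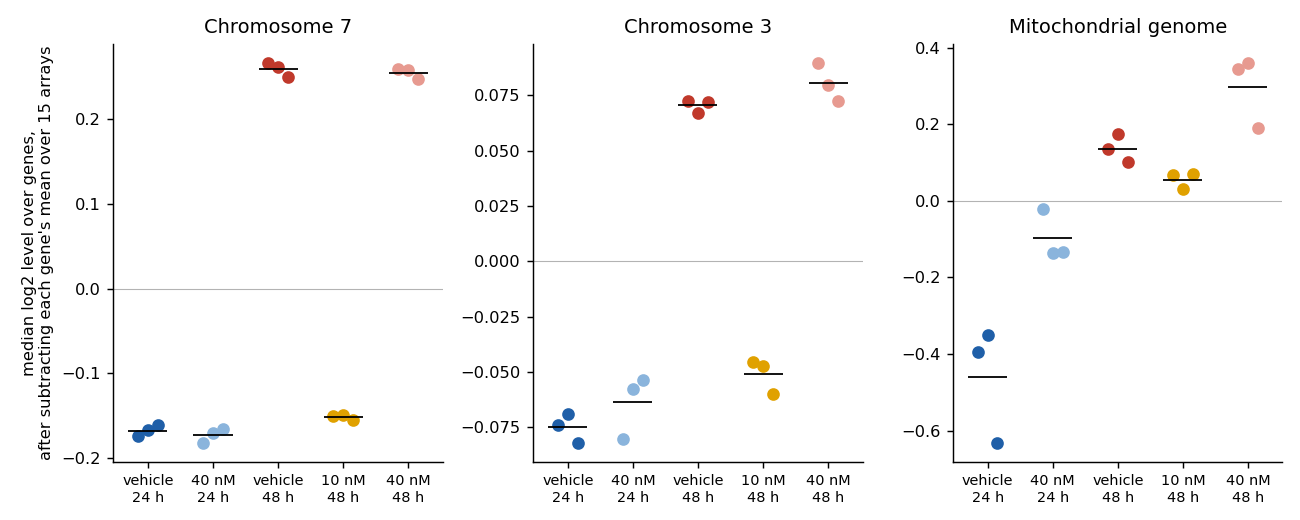
Median log2 level over the genes of chromosome 7, chromosome 3 and the mitochondrial genome on each array, after subtracting each gene's mean over 15 arrays (points, arrays; lines, group means). The 10 nM arrays labelled 48 h lie with the 24 h arrays for chromosomes 7 and 3 and above the vehicle 24 h arrays for the mitochondrial genes.

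Inflammatory genes rose most among the pathway lists. For this list and those below, the vehicle counts stand beside 20.6% of all genes called higher and 22.2% called lower. Among the 9925 genes with a mean level of at least 6 these shares were 28.5% and 26.0%. Counts of the 40 nM time change stand beside 24.2% of all genes called higher and 25% called lower. Counts of the difference stand beside 11% of all genes higher in vehicle and 11.1% lower. NF-kB is a family of transcription factors that, once freed from its inhibitors in the cytoplasm, induces chemokines, cytokines and survival genes. Of 26 measured genes on the NF-kB and inflammatory list, 16 rose and 5 fell, with a median of 0.52 against -0.02 for all genes. CXCL1, a chemokine that attracts neutrophils, had levels of 8.54, 8.32 and 8.40 at 24 h and 11.55, 11.61 and 11.55 at 48 h. The times did not overlap, and the rise was 8.90-fold (adjusted p = 2.3e-13). CCL20, a chemokine for CCR6-bearing lymphocytes, went from 4.33, 4.50 and 4.21 to 7.50, 7.43 and 7.46, which was 8.65-fold. CXCL3 rose 5.53-fold, and PTGS2, the inducible cyclooxygenase, 5.52-fold.

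Further ligands on the list rose less: CCL2 by 2.23 on the log2 scale, CXCL5 by 1.88, CXCL8 by 1.82 and CXCL2 by 1.18. The interleukin 1 genes IL1A and IL1B rose by 0.79 and 0.76. Among the genes that restrain the pathway, NFKBIA, the inhibitor that holds NF-kB in the cytoplasm, rose by 0.17, and TNFAIP3, a deubiquitinase that dampens it, fell by 0.50. IL6 fell by 0.54, IL11 by 1.39 and PTX3, a pentraxin, by 1.85. The NF-kB subunit gene NFKB1 had a difference of 0.12 and NFKB2 of 0.27, and neither passed. All 16 genes that rose had a 10 nM mean nearer to the 48 h than to the 24 h vehicle mean. Among all 4065 genes called higher, the 10 nM mean lay nearer to the 24 h vehicle mean for 1503. At 40 nM, 25 of the 26 genes rose with time, with a median of 1.55, and for 21 the change in vehicle was lower by the test of the difference.

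The promoters of the CXCL genes, which lie together on chromosome 4, are shown because they rose together and share a match to a kappa B site, the sequence that NF-kB binds. The letters searched were GGANNTTCC, where N is any base, on both strands in the 250 bases before the start, from RefSeq on build GRCh38.p14, and capitals mark the matches.
CXCL1, chr4:73869143-73869392, plus strand: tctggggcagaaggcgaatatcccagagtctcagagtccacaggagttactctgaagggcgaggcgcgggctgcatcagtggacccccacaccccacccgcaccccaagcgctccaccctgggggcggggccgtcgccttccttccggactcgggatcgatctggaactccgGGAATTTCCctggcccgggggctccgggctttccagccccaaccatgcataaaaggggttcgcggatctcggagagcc
CXCL2, chr4:74099196-74099445, minus strand: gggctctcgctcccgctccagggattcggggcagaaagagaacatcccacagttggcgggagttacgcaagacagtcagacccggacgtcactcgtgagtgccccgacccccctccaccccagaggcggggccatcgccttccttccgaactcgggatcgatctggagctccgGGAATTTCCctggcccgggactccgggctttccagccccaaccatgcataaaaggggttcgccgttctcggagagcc
CXCL3, chr4:74038690-74038939, minus strand: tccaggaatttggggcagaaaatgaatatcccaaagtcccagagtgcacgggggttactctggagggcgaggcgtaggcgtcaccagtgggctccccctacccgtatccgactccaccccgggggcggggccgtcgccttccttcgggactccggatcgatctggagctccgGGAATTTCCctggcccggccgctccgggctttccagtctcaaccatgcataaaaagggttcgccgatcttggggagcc
In each the capitals are 1 stretch that matches on both strands, beginning 78 bases before the start in CXCL1 and CXCL3 and 77 bases before it in CXCL2. The motif was found before 10 of the 21 genes of the list with a promoter entry (47.6%) and in 3.88% of all 27305 promoters. The list was drawn up as NF-kB and inflammatory genes. A share above that of all promoters follows from this choice and does not bear on the change with time. The genes with a match include CXCL5, CXCL8, NFKBIA and NFKB1 and also IL6 and TNFAIP3, which fell. A match describes the letters and not binding.

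Complement and acute phase genes, whose products are secreted in inflammation, rose as well. Of 20 measured, 11 rose and 2 fell, with a median of 0.43. When a gene's sets were averaged, 9 were higher and 5 lower, with a median of 0.22. LCN2, lipocalin 2, which binds bacterial iron carriers, had levels of 5.39, 5.61 and 5.45 at 24 h and 7.45, 7.44 and 7.45 at 48 h, a 3.90-fold rise without overlap. CFB, complement factor B, rose 4.54-fold and APOH, beta-2 glycoprotein I, 5.51-fold on their brightest probe sets. Without probe sets ending in _x_at or _s_at, CFB differed by 0.14 and APOH by -0.065, and neither passed. C1R and C1S, the proteases of the C1 complex, rose by 0.84 and 0.99, and the 3 fibrinogen chains FGA, FGB and FGG by 0.59, 0.40 and 0.56. TF, transferrin, fell by 0.66. Of the 11 that rose, 10 had a 10 nM mean nearer to the 48 h vehicle mean. For 1 it lay nearer to the 24 h vehicle mean, beside 1503 of all 4065 genes called higher.

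NRF2 is the transcription factor that, when its inhibitor KEAP1 lets it go, induces enzymes of glutathione and aldehyde metabolism through antioxidant response elements. In A549 KEAP1 is known to be mutated and this program runs high. Of 28 measured NRF2 targets, 20 rose and 1 fell, with a median of 0.25, and with array medians subtracted 11 rose and 3 fell. GPX2, a glutathione peroxidase, had levels of 6.49, 6.68 and 6.48 at 24 h and 9.08, 8.97 and 8.97 at 48 h, a rise of 2.46 on the log2 scale (adjusted p = 9.35e-12). ALDH3A1, an aldehyde dehydrogenase, rose from 10.98, 10.96 and 10.92 to 12.97, 12.95 and 12.95, which was 4.02-fold. ABCC3, an exporter of conjugates, rose 2.15-fold and AKR1B10, an aldo-keto reductase, 1.95-fold. AKR1B10 is the 1 gene of the 28 that lies on chromosome 7, whose median log2 difference was 0.43.

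The other aldo-keto reductases AKR1C1, AKR1C2 and AKR1C3 rose by 0.76, 0.82 and 0.58; they are close paralogs whose probes may share signal. The glutathione synthesis genes GCLC and GCLM rose by 0.44 and 0.20, and NQO1, a quinone reductase, by 0.20. TXNRD1, thioredoxin reductase, had a difference of 0.00 that did not pass. For 16 of the 20 genes that rose the 10 nM mean lay nearer to the 48 h vehicle mean. It lay nearer to the 24 h vehicle mean for 4, beside 1503 of all 4065 genes called higher. At 40 nM 7 of the 28 rose with time and 10 fell, beside 24.2% and 25% of all genes. The change in vehicle was higher than at 40 nM for 18, beside 11% of all genes.

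The promoter of GPX2 is shown because it was the largest rise of the list and holds a match to the core of an antioxidant response element, TGACNNNGC on either strand, in capitals.
GPX2, chr14:64942746-64942995, minus strand: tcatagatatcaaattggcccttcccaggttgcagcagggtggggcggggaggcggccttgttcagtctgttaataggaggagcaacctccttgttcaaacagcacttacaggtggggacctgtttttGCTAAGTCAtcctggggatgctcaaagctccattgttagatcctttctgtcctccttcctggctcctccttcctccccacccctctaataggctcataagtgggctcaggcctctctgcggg
The match begins 122 bases before the start. Such a match was found before 6 of the 21 NRF2 targets with an entry (28.6%) and in 3013 of all 27305 promoters. The list was drawn up as NRF2 targets, so this share does not bear on the change with time. This motif and the kappa B motif were chosen after the values were seen, and the kappa B letters are a shorter form of those first searched.

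Several genes for antigen presentation by MHC class II were lower at 48 h. HLA-DPA1 and HLA-DPB1 encode the chains of HLA-DP, HLA-DRA and HLA-DRB1 those of HLA-DR, HLA-DMA a chain that helps to load peptide, and CD74 the invariant chain that guides class II molecules through the cell. A set of 17 genes was picked after HLA-DPA1 had been seen among the largest falls. It holds the measured genes with a class II HLA symbol, HLA-DPA2, HLA-DPB2 and HLA-DRB6 among them, together with CD74 and CIITA. Whether each of them encodes a working chain was not examined. Of the 17, 7 fell, 1 rose and 9 did not pass, with a median of -0.29. HLA-DPA1 had levels of 7.69, 7.55 and 7.49 at 24 h and 3.05, 3.29 and 3.37 at 48 h, a fall of 4.34 on the log2 scale without overlap (adjusted p = 6.64e-11). HLA-DRA went from 6.68, 6.71 and 6.75 to 4.32, 4.46 and 4.23, 5.19-fold lower. CD74 went from 7.24, 7.20 and 7.08 to 5.23, 4.15 and 4.76, 5.49-fold lower, with a wider spread at 48 h.

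HLA-DPB1 was 6.03-fold lower, though its difference was -0.03 without probe sets ending in _x_at or _s_at. HLA-DMA fell by 1.92, HLA-DRB1 by 1.64 and HLA-DRB6 by 0.99. HLA-DR and HLA-DP genes are similar to their paralogs, so probes may share signal. HLA-DOB rose by 0.48 on its brightest set (adjusted p = 0.026); it did not pass when vehicle replicate 1 of 24 h, 1 of 48 h or 3 of 48 h was left out (0.41, 0.36 and 0.41), nor when its sets were averaged (0.0069), and without sets ending in _x_at or _s_at it was -0.47. CIITA, the coactivator that switches on class II genes, averaged 5.16 at both times on its brightest set, while another, dimmer set was lower by a log2 difference of -0.68 (adjusted p = 0.00063). The 10 nM means of HLA-DPA1 (6.27) and CD74 (7.15) lay nearer to the 24 h vehicle means, and those of HLA-DRA (5.43) and HLA-DPB1 (5.10) nearer to the 48 h means.

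Class II promoters carry a conserved module that ends in a CCAAT box. The windows of HLA-DPB1 and CD74 are shown with CCAAT, or ATTGG where it lies on the other strand, in capitals.
HLA-DPB1, chr6:33075740-33075989, plus strand: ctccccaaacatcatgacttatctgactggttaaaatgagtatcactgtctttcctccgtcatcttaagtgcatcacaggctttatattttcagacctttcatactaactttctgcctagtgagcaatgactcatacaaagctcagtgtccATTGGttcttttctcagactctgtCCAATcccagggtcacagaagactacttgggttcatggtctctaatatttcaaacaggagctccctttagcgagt
CD74, chr5:150412911-150413160, minus strand: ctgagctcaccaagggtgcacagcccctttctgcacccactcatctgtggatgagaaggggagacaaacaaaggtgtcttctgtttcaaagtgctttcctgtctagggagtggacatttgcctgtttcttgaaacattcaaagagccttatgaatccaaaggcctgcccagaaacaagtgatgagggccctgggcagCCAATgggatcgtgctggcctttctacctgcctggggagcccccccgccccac
HLA-DPB1 holds 2 matches, CCAAT on its own strand 75 bases before the start and ATTGG 99 bases before it. Which of them belongs to the module was not examined. The match in CD74 lies 53 bases before the start. Of 5 class II genes that fell and have an entry, 4 held a match (80%), against 33.0% of all promoters. The genes were picked as a family that carries this module, so the share does not bear on their fall.

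Chaperone genes fell modestly. Of 21 genes of the heat shock response, which HSF1 induces when proteins misfold, 2 rose and 13 fell, with a median of -0.20; on the deposited scale 9 rose and 5 fell, while the median relative to all genes was -0.25. HSPA2 fell from 8.87, 8.79 and 8.87 to 7.90, 7.85 and 7.75, 2.02-fold lower. SERPINH1, the collagen chaperone, was 1.66-fold lower and STIP1, which joins HSP70 to HSP90, 1.58-fold lower. HSP90AB1, the constitutive cytosolic HSP90, fell by 0.56, and HSP90AA1, the inducible form, differed by -0.08 on its brightest set and did not pass; of its 3 other sets, 2 fell, by 0.65 and 0.17.

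HSPB1, a small heat shock protein, went against the list, rising by 1.32 from a mean of 11.01 to 12.33. It lies on chromosome 7, whose median log2 difference was 0.43. The part of the chromosome's shift in this rise was not tested. At 40 nM 18 of the 21 fell with time and 2 rose, and for 16 the change in vehicle was higher than at 40 nM.

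Of 24 genes that the endoplasmic reticulum induces when proteins misfold within it, 1 rose and 15 fell, with a median of -0.18; on the deposited scale 12 rose and 2 fell, while the median relative to all genes was -0.21. HSP90B1, the HSP90 of that compartment, was 1.92-fold lower, HERPUD1, which helps to degrade misfolded proteins, 1.39-fold lower, and XBP1, a transcription factor of the response, fell by 0.36. EDEM1, which extracts glycoproteins for degradation, rose by 0.74. It lies on chromosome 3.

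Proliferation genes were shifted little. Of 38 genes of G2/M and mitosis, 7 rose and 19 fell, with a median of -0.13, and of 37 genes of G1/S and DNA replication, 7 rose and 15 fell, with a median of -0.07. On the deposited scale these counts became 22 higher and 3 lower, and 23 higher and 1 lower, while both medians stayed below that of all genes. The mitotic kinases TTK and AURKA fell by 0.53 and 0.51 (AURKA did not pass without sets ending in _x_at or _s_at, at -0.34), and TPX2, which activates AURKA, by 0.47. ANLN, a scaffold of cytokinesis that lies on chromosome 7, rose by 0.41, and MCM7, a helicase subunit on the same chromosome, by 0.56. MKI67, a marker of cycling cells, differed by -0.056 on its brightest set and did not pass, while another of its sets rose by 0.70 and the average of its sets was higher by 0.21 (adjusted p = 0.0023).

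At 40 nM, by contrast, all 38 G2/M genes and all 37 G1/S genes rose with time, and for each of them the change in vehicle was lower by the test of the difference. Of 24 kinase inhibitors and quiescence genes 5 rose and 4 fell in vehicle, and the 37.5% called was below the 42.7% of all genes. CDKN1A had a difference of 0.08 and CDKN1B of 0.08, and neither passed, while CDKN1C fell by 0.60 on its brightest set, a call that was lost with the values as deposited (-0.12). CCND3, a D-type cyclin, fell by 0.98.

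Growth factor output fell in part. Of 26 immediate early and ERK output genes, 3 rose and 13 fell, with a median of -0.17; on the deposited scale 13 rose and 4 fell. DUSP1, a phosphatase of MAP kinases, went from 12.23, 12.22 and 12.10 to 11.28, 11.27 and 11.29, 1.87-fold lower. DUSP6, which dephosphorylates ERK, fell by 0.67 and EGR1, an early growth response factor, by 0.61. JUN fell by 0.95 on its brightest probe set, and without sets ending in _x_at or _s_at its difference was -0.04 and did not pass. JUND, another AP-1 member, rose by 1.08, and by the mean of its probe sets it was -0.093.

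YAP/TAZ targets, which respond to cell density and stretch, were mixed, with 10 of 25 higher and 9 lower. CCN1 and CCN2, the matricellular targets most often used as readouts, fell by 0.74 and 0.95, and AMOTL1, an angiomotin, by 1.09. RBMS3, an RNA-binding protein, rose by 1.45 and FSTL1, a secreted glycoprotein, by 1.39, and both lie on chromosome 3. Of 22 actin and SRF targets 11 rose and 2 fell, with a median of 0.19, and with array medians subtracted 7 rose and 7 fell. TAGLN rose by 0.96 and ZYX, zyxin, by 0.66. Of the 22 genes 3 lie on chromosome 7, ZYX among them. CNN2 fell by 0.98.

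Matrix genes moved strongly in both directions. Of 33 measured, 11 rose and 14 fell, ranging from -2.69 to 4.55, and of 27 TGF-beta and mesenchymal genes 9 rose and 11 fell. FN1, fibronectin, rose from 10.02, 10.05 and 10.09 to 11.64, 11.64 and 11.58, which was 2.96-fold. COL12A1, a fibril-associated collagen, rose by 2.17 and MMP7, matrilysin, by 1.68. LAMB3, a chain of laminin 332, was 6.43-fold lower, with levels of 8.11, 8.20 and 8.36 at 24 h and 5.36, 5.70 and 5.55 at 48 h. The type IV collagens COL4A1 and COL4A2 fell by 1.03 and 0.84, the crosslinking enzyme LOX by 0.77 and the protease gene PLAU by 1.47.

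Among regulators of the mesenchymal state, ZEB2, a repressor of epithelial genes, rose by 2.11 to a mean of 5.15, and SNAI2 fell by 0.68. On the epithelial side 8 of 26 junction and keratin genes rose and 5 fell. KRT19, a simple epithelial keratin, went from 5.46, 5.02 and 4.91 to 8.21, 8.15 and 8.17, 8.25-fold higher without overlap. DSP, desmoplakin, was 2.94-fold lower and CDH1, E-cadherin, 1.71-fold lower, while JUP, plakoglobin, rose by 0.96 and OCLN, occludin, by 0.77. The 10 nM mean of KRT19 was 5.69 and that of FN1 10.33, both nearer to the 24 h vehicle arrays.

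**Figure D4:**
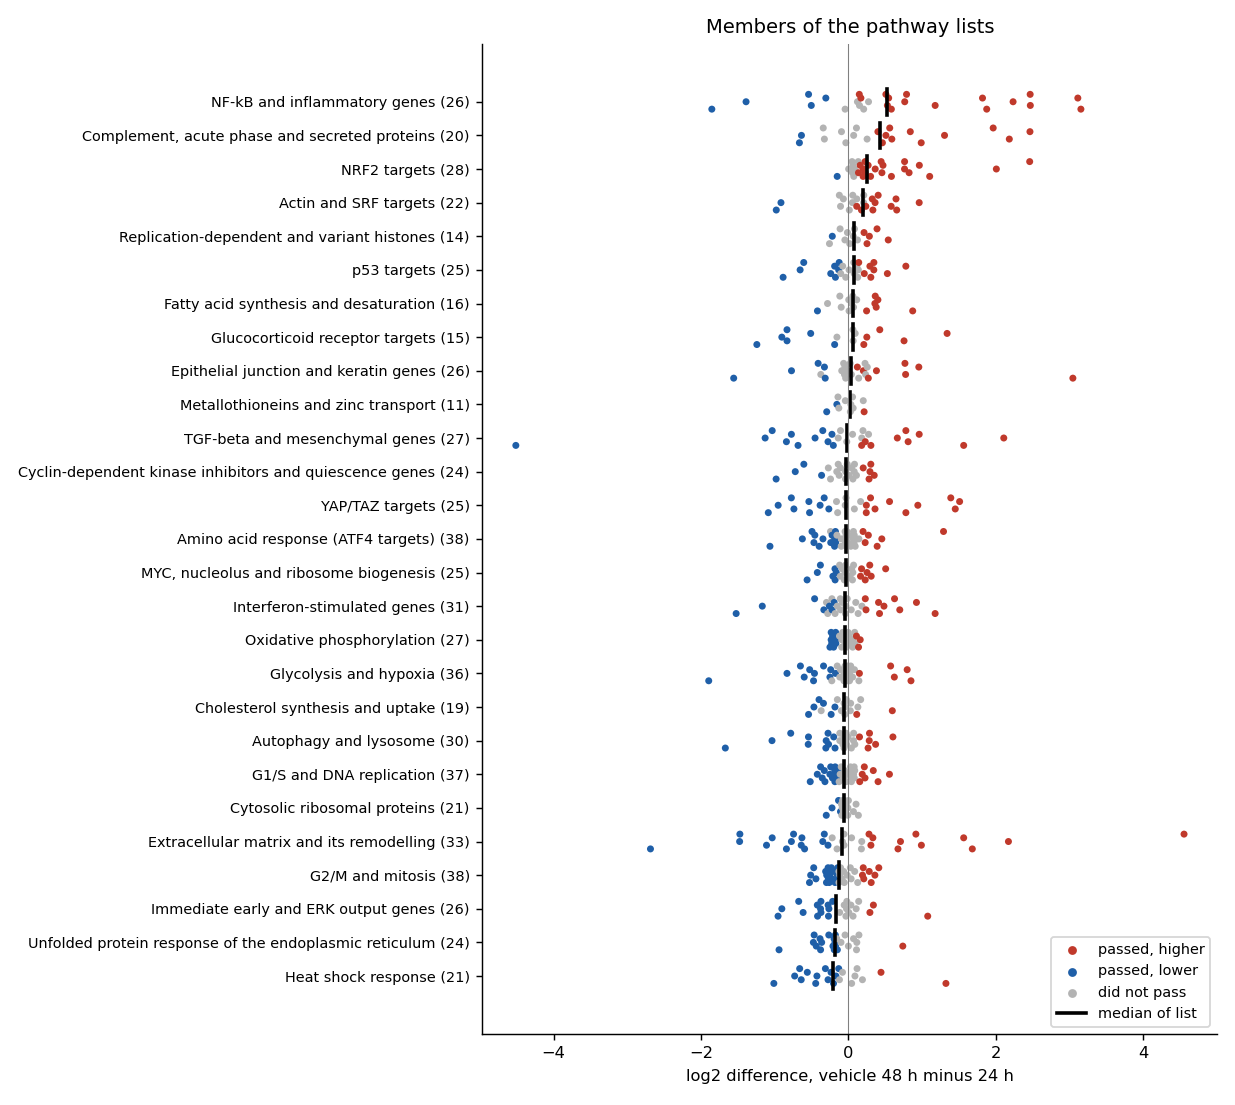
Log2 difference between 48 h and 24 h in vehicle for every measured member of the 27 pathway lists (points; red and blue passed at an adjusted p below 0.05, grey did not), with the median of each list as a bar and the number measured in parentheses. The NF-kB, complement and NRF2 lists have the highest medians (0.52, 0.43 and 0.25), while the matrix list spans the widest range around a median of -0.08.

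Metabolic lists had medians near that of all genes. The share called among all genes was 42.7%. It was 44.4% for glycolysis and hypoxia, 42.1% for cholesterol, 43.75% for fatty acid genes and 50% for ATF4 targets. Most members of these lists had a mean level of at least 6 (33 of 36, 17 of 19, 14 of 16 and 36 of 38). Genes at that level were called more often than all genes, 28.5% higher and 26.0% lower. Of 36 glycolysis and hypoxia genes 5 rose and 11 fell; the glucose transporters moved in opposite directions, with SLC2A3 3.72-fold lower (8.47, 8.41 and 8.39 against 6.70, 6.42 and 6.47) and SLC2A1 higher by 0.85. Of 19 cholesterol genes 2 rose and 6 fell, and SQLE, squalene epoxidase, fell by 0.47, which did not pass as deposited (-0.14). Of 16 fatty acid genes 6 rose and 1 fell, with ACACA, acetyl-CoA carboxylase, higher by 0.87. Of 38 ATF4 targets 6 rose and 13 fell: CTH, which makes cysteine, fell by 1.06, TRIB3 by 0.40 (-0.090 and not passed as deposited), and NUPR1, a stress-induced chromatin protein, rose by 1.29.

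Of 30 autophagy and lysosome genes 6 rose and 11 fell, and CTSZ, cathepsin Z, fell by 1.67. Of 15 glucocorticoid receptor targets 5 rose and 6 fell, with SGK1, a kinase, 2.37-fold lower and ERRFI1, an inhibitor of the EGF receptor, higher by 1.34. Interferon-stimulated genes went both ways, with 9 of 31 higher and 7 lower, and 51.6% were called against 42.7% of all genes. IFITM1 rose by 1.18 and OAS1 by 0.92, while IFI44L fell by 1.52 and HERC5 by 1.17. Of 25 p53 targets 8 rose and 8 fell. PLK3 rose by 0.78, and PMAIP1, a BH3-only protein, fell by 0.89. Of 25 genes of MYC and ribosome biogenesis 7 rose and 7 fell, and MYC itself fell by 0.42, which did not pass with the values as deposited (-0.12). The 3 remaining lists were 21 ribosomal protein genes (4 fell), 14 histone genes (5 rose, 1 fell) and 11 metallothionein and zinc genes (1 rose, 2 fell). Their medians lay between -0.07 and 0.07, and the shares called were 19.0%, 42.9% and 27.3%.

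Markers of cell type were read beside these changes. Of 17 markers of A549 and lung epithelium, 10 had a mean level of at least 6 at 24 h and 10 at 48 h. They were counted for each time apart and need not be the same genes. The mean over the list was 8.40 to 8.43 at 24 h and 8.57 to 8.61 at 48 h. CPS1 had the largest change of the list, a rise of 1.79. FOXA1, an epithelial pioneer factor, fell by 1.27 and FOXA2, its paralog, rose by 1.08, while KRT18 differed by 0.02. Of 12 alveolar type 2 markers 4 rose and 2 fell; SFTPB, surfactant protein B, rose by 0.86 on its brightest set, and was at -0.083 without sets ending in _x_at or _s_at. None of 10 leukocyte markers and none of 11 endothelial markers reached a mean of 6 at either time. Of 12 fibroblast markers 6 rose and 2 fell, and the list's mean went from between 4.70 and 4.72 to between 5.03 and 5.06. COL1A1 had its highest level (8.31 at 48 h), while LUM alone accounts for the change from 2 to 3 markers at or above 6. The part of other cell types in the changes of matrix genes was not tested.

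**Figure D5:**
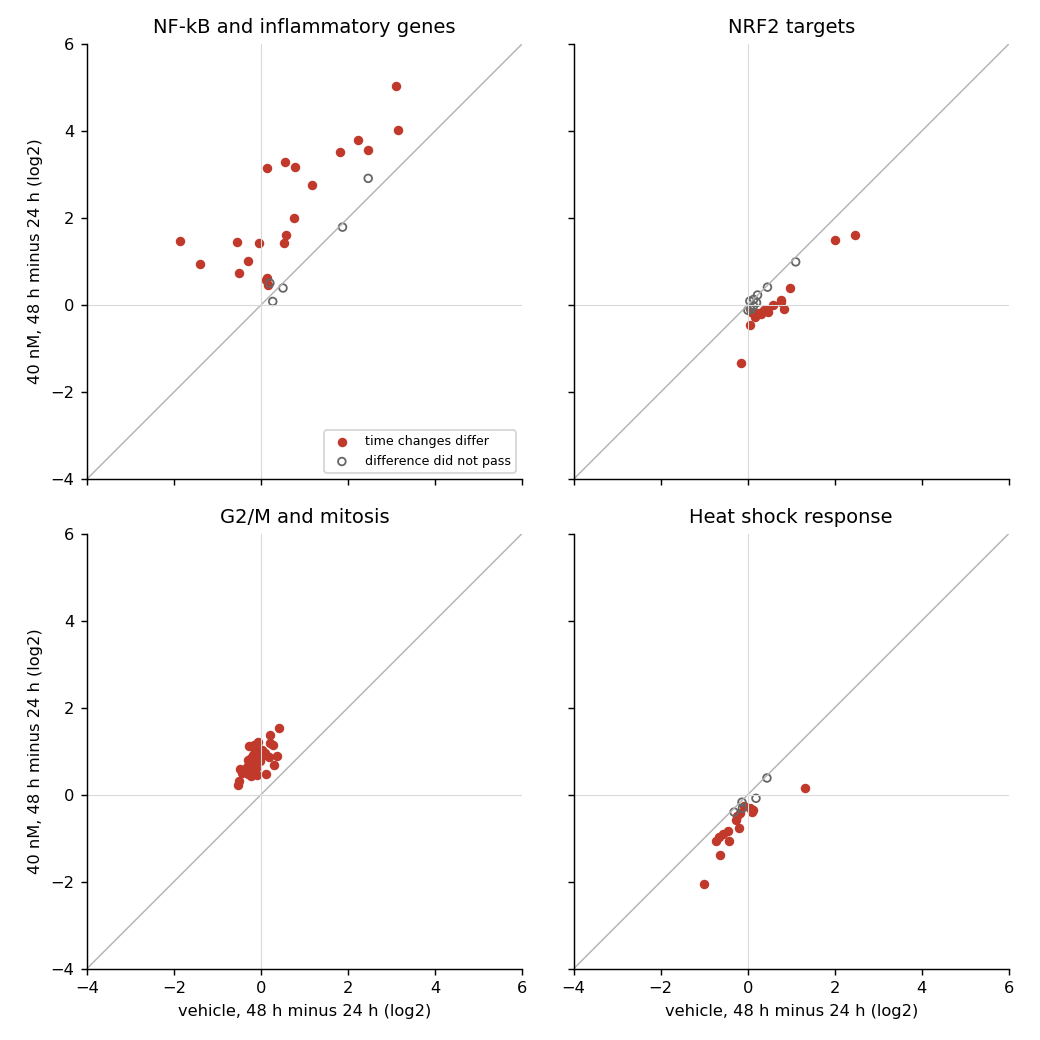
Change between 24 h and 48 h at 40 nM (y axis, log2) against that in vehicle (x axis, log2) for the members of 4 lists; red points passed the test of the difference and the line marks equal changes. The 38 G2/M genes lie above the line and most inflammatory genes do too, while NRF2 and heat shock genes lie mostly below it.

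Among the genes whose change with time differed most between vehicle and 40 nM were PTX3, G0S2, CCL5, HPD, CDKN1C and CTH. PTX3 had levels of 7.88, 7.85 and 7.60 at 24 h and 5.81, 5.88 and 6.08 at 48 h in vehicle, a fall of 1.85 on the log2 scale, while at 40 nM it rose by 1.48. G0S2, an inhibitor of the lipase ATGL, fell by 2.02 in vehicle and rose by 0.68 at 40 nM. CCL5, a chemokine, differed by 0.15 in vehicle without passing and rose by 3.16 at 40 nM. In the other direction, HPD, an enzyme of tyrosine breakdown, fell by 0.66 in vehicle and by 4.02 at 40 nM. CDKN1C fell by 0.60 and by 3.06, and CTH by 1.06 and by 3.50.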

How the data were processed

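The deposited table holds log2 values, and the submitters' processing notes name RMA and Affymetrix Expression Console as what the authors used, without a version. In RMA, background is removed, arrays are brought to 1 distribution, and each set's probes are combined into 1 value. The deposited array means were 5.13 to 5.14 at 24 h and 5.52 at 48 h, so a level set across the times holds any step between them. All 15 arrays were therefore quantile-normalized together, which removes such a step along with any true global change.

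Of 54675 probe sets, 62 are controls, 41091 have 1 gene symbol in GEO's platform annotation, 1801 have several, and the remaining 11721 have no name here. By their gene ID, 41037 received the current symbol. The brightest set over the 15 arrays stood for each of 19775 genes. Of 3938 genes with 2 or more sets called, 1481 (37.6%) had sets called in both directions. Chromosomes and gene order come from the RefSeq table of GRCh38.p14.

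Group means of the 5 groups were fitted by limma's lmFit and eBayes (version 3.58.1, R 4.3.3) with 10 residual degrees of freedom and two-sided p-values adjusted by Benjamini-Hochberg over all genes, threshold 0.05. The median SE of the vehicle difference was 0.087. The fit was tested on simulated data. The labels do not say that replicates came from separate cultures, so p-values measure the spread between arrays, which may be technical. Arrays have no read depth, and 3 arrays a group limit the precision. No 2 arrays held identical values. The 3' to 5' difference is given for GAPDH; that of a further control gene is not reported here.

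The comparison, gene lists and rules were chosen with earlier results of these data known. Named genes were the 12 largest rises and falls whose arrays do not overlap and that pass with the same sign with array medians subtracted and with cyclic loess, and up to 4 passing members with the largest change of each list with 5 or more passing members or a median 0.2 or more from that of all genes. A set of 20 single genes such as MKI67 and CDKN1A, and the 5 largest each way in the other comparisons, were followed too; further list members are given as examples chosen after their values were seen. Gene lists were described by counts and medians and not tested. A member of a list whose name gives only a locus was not described. Alternatives were other scalings, filters and fits, given in the closing section.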

Additional observations from a re-analysis of the deposited data

Results flagged for a closer look

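For 20 genes the change with time differed between vehicle and 40 nM by limma's test of the difference; they are those of the 12 largest rises and falls and of the 5 largest differences each way. Values are the vehicle change minus the 40 nM change, in log2. Among genes that rose in vehicle, the excess over 40 nM was 2.80 for GREM1, 1.14 for ST6GAL2, 1.07 for CYP1B1 and 0.77 for LUM. Among genes that fell in vehicle, those that fell less than at 40 nM differed by 1.99 for FAM9B, 1.21 for EDIL3 and 0.84 for HBE1. Those that fell more than at 40 nM differed by -1.51 for HLA-DPA1, -0.96 for RGS4, -0.67 for SHROOM2 and -0.49 for SPARC.

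The largest positive differences over all genes were 3.37 for HPD, 2.80 for GREM1, 2.46 for CDKN1C, 2.45 for UGT1A6, a glucuronosyltransferase, and 2.44 for CTH. The largest negative ones were -3.33 for PTX3, -3.01 for CCL5, -2.77 for MAFF, a small MAF factor, -2.74 for BCL2A1, a BCL2-family survival gene, and -2.70 for G0S2. Adjusted p-values ran from 1.81e-09 for PTX3 to 0.0172 for LUM.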

How the results depend on the processing

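Followed under the alternatives, 161 named genes kept their direction and call in most cases; cyclic loess, the replicate block and quantiles without the 10 nM arrays changed none of their calls. Among the 23 described genes of the largest rises and falls, the only changes other than the 2-fold threshold were those of LUM and MCAM without probe sets ending in _x_at or _s_at. Sizes moved more: when a gene's sets were averaged, the largest rise among them was 3.71 in place of 4.55.

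The count for vehicle was 13968 with the values as deposited and 515 at 2-fold. The count for 40 nM was 814 at 2-fold, and that for the difference was 2357 with array medians subtracted and 352 at 2-fold. Leaving out 1 array at a time gave 7229 to 7889 genes for vehicle, 8698 to 9211 for 40 nM, 3861 to 4302 for the difference and 0.44 to 0.46 for the chromosome 7 median relative to all genes (0.45 otherwise). That median was 0.42 with the values as deposited and with array medians subtracted, 0.43 with a floor at the 20th percentile, 0.43 with the dimmest 40% of genes left out, 0.36 when a gene's sets were averaged and 0.40 without sets ending in _x_at or _s_at. With a minimum mean level of 0 or 8 in place of 6, chosen after seeing the data, it was 0.21 and 0.50.

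Deviations of vehicle arrays with the same replicate number correlated at 0.24, 0.12 and 0.01, and those with different numbers at -0.22 to 0.14. With 3 arrays a group, this cannot show whether the numbers pair the arrays. With the number as a block the vehicle count was 8137.

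Single genes that changed sign, with their new log2 difference, were these; the cause was not tested. With the values as deposited, CDKN2D was at 0.095, SDHA 0.056, SDHC 0.076, NDUFS1 0.086, UQCRC2 0.079, NAPSA 0.014, MKI67 0.28, CCNB1 0.048, HMGCS1 0.21, HSP90AA1 0.16, HSPA5 0.012, GAPDH 0.21, HLA-DQA1 0.35, HLA-DQB1 0.25, HLA-DQB2 0.43 and CIITA 0.48. With array medians subtracted, ASNS was at -0.016 and ACTB at -0.27. When a gene's sets were averaged, SCD was at -0.11, UQCRC2 0.14, JUND -0.093 and MKI67 0.21. Without sets ending in _x_at or _s_at, LUM was at -0.089, CDC25C 0.029, ITGB3 0.43, APOH -0.065, SFTPB -0.083 and HLA-DOB -0.47. After the sign change MKI67 passed, with an adjusted p of 0.016 as deposited and 0.0023 when its sets were averaged. Also passing as deposited were HMGCS1 (0.034), HSP90AA1 (0.0082), GAPDH (0.0018), HLA-DQA1 (0.013), HLA-DQB1 (0.023), HLA-DQB2 (0.0014) and CIITA (0.015). ACTB passed with array medians subtracted (0.0061) and UQCRC2 with its sets averaged (0.0499). Without sets ending in _x_at or _s_at, ITGB3 (0.024) and HLA-DOB (0.0012) passed. UQCRC2, ITGB3 and HLA-DOB had passed in the opposite direction in the main fit. Calls lost with the same sign numbered 13 with the values as deposited, 8 when a gene's sets were averaged, 8 without sets ending in _x_at or _s_at, and at most 3 when 1 array was left out.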

Other observations

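Chromosome 20 was divided along its length. Of its 7 runs of about 40 neighbouring genes, the 3 nearest the start of the chromosome, from ZCCHC3 to ITCH, had median log2 differences of 0.14, 0.11 and 0.082 between 24 h and 48 h in vehicle. The other 4, from DYNLRB1 to PCMTD2, had medians of -0.072, -0.17, -0.24 and -0.18. In the run from TP53RK to NELFCD 14.6% of 41 genes were above 0, against 78.6% of 42 genes in the run from ZCCHC3 to TMEM230. On the 40 nM arrays, which are not shared with vehicle, the first 3 runs were at 0.097, 0.17 and 0.11 and the other 4 at -0.24, -0.19, -0.27 and -0.15. For 10 nM at 48 h minus vehicle at 24 h the 7 runs lay between -0.075 and 0.098. The chromosome was chosen after its values were seen, and no test was made.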
